A study of Mus musculus with 15 samples.

Results

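The question addressed here is whether loss of caspase-2 had the same effect on gene expression in a B cell lymphoma and in a neuroblastoma. The data were RNA-seq counts from 15 mouse tumors, and all 15 of the 15 tumors of the study entered the comparison. For each of 14880 expressed genes, the effect of genotype in the lymphomas (EμMyc/Casp2-/- minus EμMyc) was set against the effect in the neuroblastomas (Th-MYCN/Casp2-/- minus Th-MYCN), both as log2 fold changes. The difference of these effects is called the interaction. A positive interaction means that the change with Casp2 loss was more positive in lymphoma than in neuroblastoma.

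The 4 EμMyc and 3 EμMyc/Casp2-/- tumors were cervical lymph node lymphomas of mice on a C57BL/6 background, with onset at 13 to 19 weeks and 8 to 12 weeks, respectively. The 4 Th-MYCN and 4 Th-MYCN/Casp2-/- tumors were paraspinal thoracic neuroblastomas of mice on a Sv129/C57BL6 background, with onset at 10 to 21 weeks and 15 to 24 weeks. The transgene of the lymphoma model places c-Myc under an antibody heavy chain enhancer that acts in B cells, and that of the neuroblastoma model places MYCN under the promoter of Th, which acts in sympathetic neuroblasts, so each model is limited to the cells its promoter reaches. All 15 tumors therefore carried a Myc family transgene, and the 7 Casp2-/- tumors also lacked functional caspase-2. Each library came from 1 tumor of a different mouse, and the neuroblastomas had been chosen for absent or reduced blood vessels. Strain background and tumor type cannot be told apart. Females were 1 of 7 lymphoma mice (tumor EuMycC2ko215) and 5 of 8 neuroblastoma mice. A further EμMyc/Casp2-/- tumor that the study removed was not analysed here.

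Caspase-2 is a protease that is activated in the PIDDosome, a complex with Pidd1 and Cradd, and is known for its part in the response to failed cell division and DNA damage. Loss of caspase-2 is known from earlier work to speed lymphoma in EμMyc mice. Bulk RNA counts do not separate a change in the tumor cells from a change in the mixture of cells, and fewer cells of a type and less RNA per cell cannot be told apart.

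Libraries held 4940464 to 17638029 reads on genes in the second-strand counts, and 9845761 to 35192127 in the counts of either strand. In the second-strand counts 3 reads corresponded to 0.173 to 0.586 CPM (read counts scaled to the library size), which covers counting error only. Levels are given in CPM after scaling by TMM (trimmed mean of M-values). The B cell marker Cd79a ranged from 413 to 896 CPM in the lymphomas and from 0.675 to 2.83 CPM in the neuroblastomas, and the catecholamine enzyme gene Th from 0.0835 to 3.32 and from 75.9 to 1450 CPM. Xist had 35.1 CPM in tumor MYCNC2ko176, labelled female in the study, against 1680 to 3730 CPM in the other 4 female neuroblastomas. Second-strand counts, as in the study, were used. The share of stranded reads that fell on the second strand was 48.8% to 49.3% in each library, so the strand columns hold no strand information, and reads of genes that overlap on opposite strands cannot be told apart.

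The genes with the clearest interaction were the endoplasmic reticulum gene Rcn1, which fell with Casp2 loss in the neuroblastomas, and Prdm16 and Pitpnm2, which rose and fell in the lymphomas. By the likelihood ratio test (LRT) of edgeR, the interaction was called for 136 genes (0.914% of the 14880 tested) at a Benjamini-Hochberg FDR under 0.05 and a difference of over 2-fold. It was positive for 108 genes (0.726%) and negative for 28 (0.188%). By the quasi-likelihood test (QLF) of edgeR, which allows for uncertainty in each gene's spread, 8 genes (0.0538%) were called at the same thresholds. These were Rcn1, Prdm16, Pitpnm2, Ccdc30, Amy1, St7, Vill and Tmem181b-ps. Unadjusted p-values under 0.05 were found for 1333 genes by the LRT (8.96%) and 1127 by QLF. With the week of onset as a covariate, 37 positive and 28 negative genes were called by the LRT, of which 28 and 11 were among the 136. Every EμMyc/Casp2-/- lymphoma had an earlier onset than every EμMyc lymphoma, so that fit cannot tell onset from genotype in the lymphomas. The p-values measure the spread between single tumors of different mice.

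Across all 14880 genes the genotype effects in lymphoma and neuroblastoma shared a direction in 7847 genes (52.7%) and had opposite directions in 6835, while 198 genes had no fitted change in one of the tumor types. Over all genes Pearson's r between the effects was 0.0184 and Spearman's rho was 0.0546. Both effects come from separate tumors, so no tumor is shared between them, but genes are not independent replicates and no p is given. The SD of the log2 fold changes was 0.975 in the lymphomas and 0.665 in the neuroblastomas. Over the 8400 genes with a group mean above 10 CPM in both tumor types the same direction was seen in 55.3%, with r = 0.0649 and rho = 0.127. In the plot of the genotype effects the cloud of points had little slope.

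**Figure D1:**
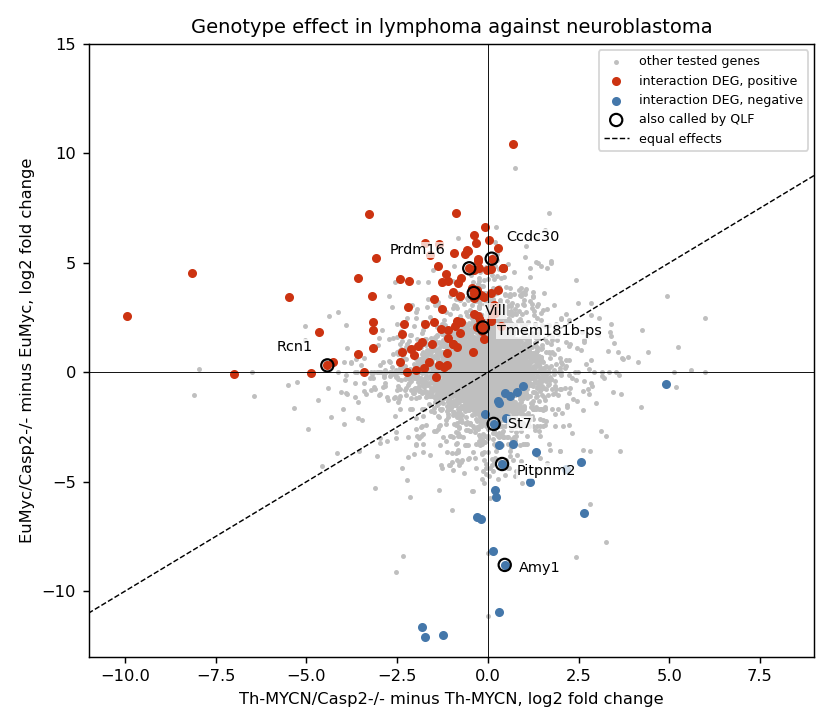
Genotype effect in the neuroblastomas (x axis, log2 fold change) against that in the lymphomas (y axis, log2 fold change) for 14880 genes, 1 point per gene. Red and blue points are the 108 positive and 28 negative interaction DEGs by the LRT, black circles the 8 genes also called by QLF, and the dashed line marks equal effects. Of the DEGs, 112 have effects of opposite sign, and 39 of these changed over 2-fold in both tumor types. Selection on the difference between the effects favours opposite signs.

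Among genes with more evidence of a change, the split between the same and opposite directions was near even in most sets. It leaned to opposite directions in genes called up in the neuroblastomas and in genes whose groups did not overlap in either tumor type. Of the 127 genes with an unadjusted LRT p under 0.05 in both tumor types, 59 (46.5%) had the same direction and 68 the opposite. Among the 215 genes called in the lymphomas (1.44%), 113 (52.6%) had the same direction in the neuroblastomas and 100 the opposite, and the median neuroblastoma log2 fold change of the 170 called up (1.14%) was 0.04, beside 0 for the 45 called down (0.302%). Of the 121 genes called in the neuroblastomas (0.813%), 57 (47.1%) had the same direction in the lymphomas, 57 the opposite and 7 no fitted change, and the 93 called down (0.625%) had a median lymphoma log2 fold change of -0.05. Of the 28 called up (0.188%), 10 had the same direction, 17 the opposite and 1 no fitted change. Their median lymphoma log2 fold change was -0.315. The groups did not overlap in either tumor type for 43 genes, of which 28 had opposite directions and 15 the same. For comparison, 3.70% of all tested genes had lymphoma groups that did not overlap and 6.62% neuroblastoma groups that did not overlap. Megf6 alone was called by the LRT in both tumor types, in opposite directions.

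Most of the interaction calls were carried by the lymphomas. Of the 136 genes, 81 were also called in the lymphomas alone, 29 in the neuroblastomas alone, 1 in both and 25 in neither. The larger of the effects was that of the lymphomas for 103 genes and that of the neuroblastomas for 33. Opposite signs were seen in 112 genes and the same sign in 24. In the direction of the call, the lymphoma groups did not overlap for 35 of the positive genes and 15 of the negative genes (background 1.75% and 1.96% of all genes). The neuroblastoma groups did not overlap for 37 and 8 (background 3.68% and 2.94%), and neither tumor type parted its groups for 55. The call selects genes for a large difference between the effects. Such a selection favours opposite signs and groups that do not overlap in the direction of the call, so these counts are no separate support. The highest EμMyc/Casp2-/- tumor was EuMycC2ko215 for 75 of the 108 positive genes, against 39.6% of all tested genes.

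Rcn1 is the gene of reticulocalbin-1, a calcium-binding protein of the endoplasmic reticulum (chromosome 2, 105386291 to 105399319, GRCm38), and its call came from the neuroblastomas. In the Th-MYCN tumors Rcn1 had 97.0, 218, 257 and 252 CPM, and in the Th-MYCN/Casp2-/- tumors 8.57, 11.2, 7.23 and 11.2 CPM. In the EμMyc tumors it had 30.2, 52.9, 41.2 and 49.2 CPM, and in the EμMyc/Casp2-/- tumors 52.7, 50.1 and 59.0 CPM. Every Th-MYCN/Casp2-/- tumor thus lay below every other tumor of the study, whereas the lymphoma groups overlapped. The genotype log2 fold change was -4.42 in the neuroblastomas and 0.32 in the lymphomas, an interaction of 4.74 (SE 0.422, LRT FDR 1.28e-23, QLF FDR 8.28e-05). No gene had a smaller interaction FDR by either test. The QLF call was kept in all 15 fits that each left out a tumor.

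Prdm16, a zinc finger transcriptional regulator known from brown fat and blood stem cells, showed the reverse arrangement. It had 0.350, 1.11, 0.472 and 0.425 CPM in the EμMyc tumors, and 13.9, 11 and 23.8 CPM in the EμMyc/Casp2-/- tumors. In the Th-MYCN tumors it had 27.5, 20.3, 13.6 and 18.2 CPM, and in the Th-MYCN/Casp2-/- tumors 10.0, 15.4, 15.6 and 14.7 CPM. Prdm16 was near the floor of detection in EμMyc tumors and lay in the range of the neuroblastomas in every EμMyc/Casp2-/- tumor, while the neuroblastoma groups overlapped. The interaction was 5.26 (SE 0.607, LRT FDR 2.07e-14, QLF FDR 0.00076) and was kept by QLF in all 15 fits that left out a tumor.

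Prdm16 lies on chromosome 4 (154316125 to 154636873) beside Megf6 (154170730 to 154275713), whose gene model ends 40412 bases away, and Ccdc27 lies 128053 bases beyond Megf6. All 3 were positive interaction DEGs, with fitted log2 interactions of 5.26, 7.86 and 12.68, although Ccdc27 had no reads in some groups and its fitted value is no measure of size. In all, 10 pairs of interaction DEGs lay within 200000 bases of each other, 3 of them among Dcpp1, Dcpp2 and Dcpp3. Prdm16 and Megf6 did not share a pattern over the EμMyc/Casp2-/- tumors, since Megf6 was lowest in EuMycC2ko245, where Prdm16 was highest. Dcpp1, Dcpp2 and Dcpp3 did share a pattern over the EμMyc tumors, lowest in EuMyc614 and highest in EuMyc835. Of the 10 pairs, 2 had interactions of opposite sign. The promoters of the neighbours Prdm16 and Megf6 are shown, with the window of St7 that holds the E-box CACGTG bound by Myc proteins. The windows run from 250 bases before to 50 bases after the start (RefSeq, GRCm38.p6), chr4:154636824-154637123 on the minus strand, chr4:154170463-154170762 on the plus strand and chr6:17693744-17694043 on the plus strand. They are written 5′ to 3′ in lower case, with the E-box in capitals.
Prdm16: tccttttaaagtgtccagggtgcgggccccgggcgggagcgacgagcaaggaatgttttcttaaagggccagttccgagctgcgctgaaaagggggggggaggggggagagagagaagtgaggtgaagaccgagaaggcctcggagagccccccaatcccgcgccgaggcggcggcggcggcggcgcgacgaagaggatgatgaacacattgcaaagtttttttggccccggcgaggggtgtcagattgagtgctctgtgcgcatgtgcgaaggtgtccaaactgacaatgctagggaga
Megf6: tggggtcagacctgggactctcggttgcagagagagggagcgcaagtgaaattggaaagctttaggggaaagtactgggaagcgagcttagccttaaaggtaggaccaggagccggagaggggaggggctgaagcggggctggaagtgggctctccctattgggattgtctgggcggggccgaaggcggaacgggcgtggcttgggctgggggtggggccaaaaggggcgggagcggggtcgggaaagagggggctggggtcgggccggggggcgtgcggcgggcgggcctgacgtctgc
St7: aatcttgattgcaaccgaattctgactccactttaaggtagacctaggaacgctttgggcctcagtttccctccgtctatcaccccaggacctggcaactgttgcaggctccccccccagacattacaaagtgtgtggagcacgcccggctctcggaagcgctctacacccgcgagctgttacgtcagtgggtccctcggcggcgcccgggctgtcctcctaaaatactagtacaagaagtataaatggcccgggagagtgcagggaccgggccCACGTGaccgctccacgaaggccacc
The E-box CACGTG, which reads the same on both strands, begins at base 25 after the start in the St7 window and was not found in those of Prdm16 and Megf6. Other windows of St7, at further starts, did not hold it. Of the interaction DEGs, 106 had a promoter in the table and 8 of these (7.55%) held the E-box in at least 1 window, against 11.4% of the 10495 tested genes that had one. It was held by 7 of 80 positive and 1 of 26 negative DEGs.

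Pitpnm2, a membrane-associated phosphatidylinositol transfer protein gene (chromosome 5, 124118690 to 124249760), fell in the lymphomas. The EμMyc tumors had 70.5, 115, 116 and 162 CPM and the EμMyc/Casp2-/- tumors 6.25, 7.93 and 4.75 CPM. In the neuroblastomas the levels were 23.3, 35.1, 57.9 and 24.2 CPM in Th-MYCN and 45.5, 65.3, 45.0 and 28.4 CPM in Th-MYCN/Casp2-/- tumors. The lymphoma groups were parted by a wide gap and the neuroblastoma groups overlapped. The interaction was -4.58 (SE 0.518, LRT FDR 4.00e-13, QLF FDR 0.00125), and QLF called it in all 15 fits that left out a tumor. Its neighbour Abcb9, a lysosomal peptide transporter gene that starts 22892 bases away, moved the other way, with an interaction of 4.63 (SE 1.28, LRT FDR 0.0396, QLF FDR 0.335). The lymphoma groups overlapped for Abcb9. Its LRT call was kept in 3 of the 15 fits that left out a tumor and was lost without EuMycC2ko215.

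Ccdc30, a coiled-coil protein gene (chromosome 4, 119322893 to 119415521), had 0, 0.171, 0.0787 and 0 CPM in the EμMyc tumors and 3.91, 3.09 and 1.51 CPM in the EμMyc/Casp2-/- tumors. Its level in the neuroblastomas was nearly constant, at 14.6, 13.7, 15.3 and 14.8 CPM in Th-MYCN and 17.9, 14.9, 14 and 16.1 CPM in Th-MYCN/Casp2-/- tumors. The lymphoma groups did not overlap, with every EμMyc tumor at or below the level of 3 reads, and the neuroblastoma groups overlapped. The interaction was 5.08 (SE 0.976, LRT FDR 2.45e-08, QLF FDR 0.0114), kept by QLF in all 15 fits. With the quasi-likelihood test on reads of either strand, its FDR was 0.0769.

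St7, a candidate tumor suppressor gene (chromosome 6, 17692933 to 17943025), had 19.2, 17.1, 10.3 and 14.6 CPM in EμMyc and 4.69, 2.17 and 2.52 CPM in EμMyc/Casp2-/- tumors. In Th-MYCN tumors it had 52.4, 38.6, 38.1 and 35.5 CPM, and in Th-MYCN/Casp2-/- tumors 42.0, 48.8, 41.4 and 51.6 CPM. The lymphoma groups did not overlap and the neuroblastoma groups did, and every lymphoma lay below every neuroblastoma. The interaction was -2.52 (SE 0.418, LRT FDR 6.46e-06, QLF FDR 0.0301). The LRT call was kept in all 15 fits that left out a tumor and the QLF call in 5.

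Vill, which encodes a villin-like actin-binding protein (chromosome 9, 119052778 to 119071525), had 1.14, 2.40, 2.76 and 0.956 CPM in EμMyc and 29.7, 17.5 and 20.8 CPM in EμMyc/Casp2-/- tumors. The 8 neuroblastomas ranged from 0.514 to 1.24 CPM, with overlap between genotypes. High Vill was thus found in the 3 EμMyc/Casp2-/- tumors and in no other. The interaction was 4.01 (SE 0.69, LRT FDR 1.15e-05, QLF FDR 0.0301), and QLF called it in 6 of 15 fits that left out a tumor.

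Tmem181b-ps is a pseudogene on chromosome 17 (6438524 to 6467022), whose reads could be shared with its parent genes, so its level is uncertain. It had 4.37, 6.25, 4.96 and 4.46 CPM in EμMyc and 30.7, 16.7 and 15.6 CPM in EμMyc/Casp2-/- tumors. The neuroblastomas ranged from 68.9 to 140 CPM and their groups overlapped. The interaction was 2.18 (SE 0.399, LRT FDR 6.61e-05, QLF FDR 0.046), with the QLF call kept in 2 of the 15 fits that left out a tumor. Amy1 is described with the salivary gland genes, and its QLF call was kept in 2 of the 15 fits.

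**Figure D2:**
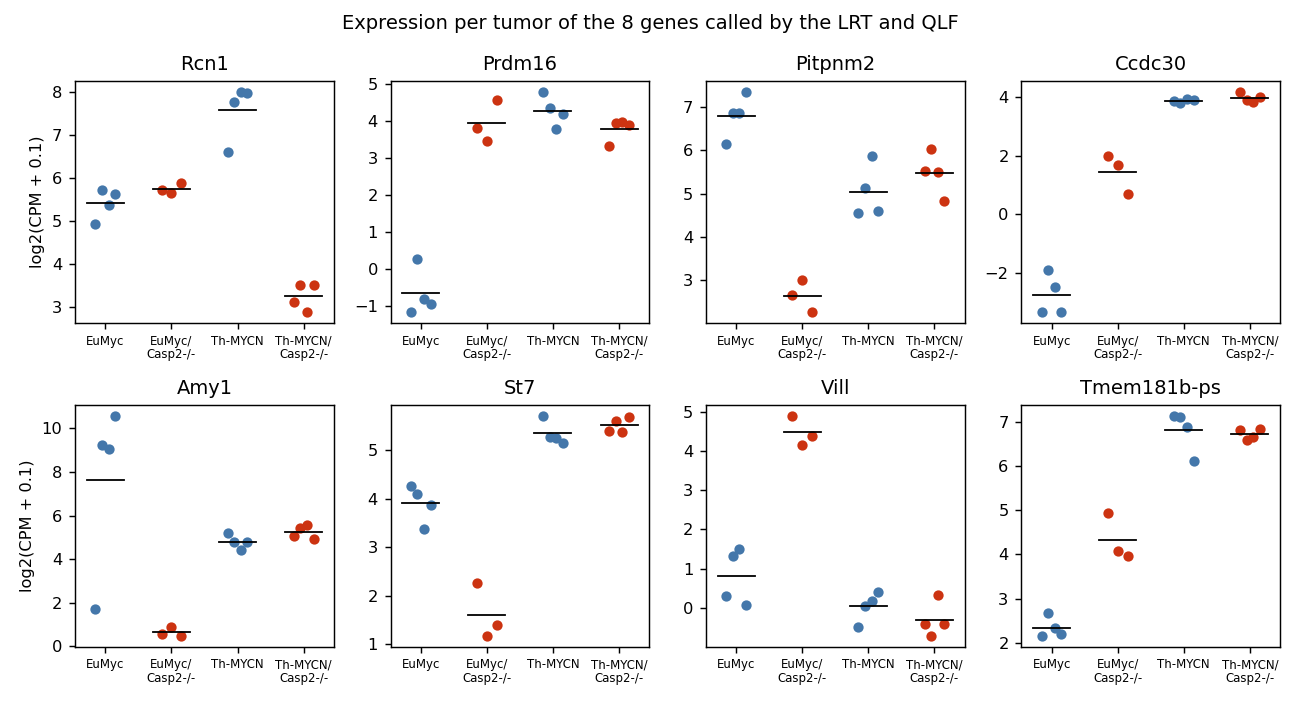
Expression of the 8 genes called by both tests, as log2(CPM + 0.1) on the y axis, in each tumor of the 4 groups on the x axis. Points are single tumors and bars are means. In Rcn1 the step lies between the neuroblastoma groups, and in the other 7 genes between the lymphoma groups.

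Further genes among the positive LRT calls with the smallest FDR were not called by QLF. Ttbk1, a neuronal tau tubulin kinase, had 0 to 0.875 CPM in EμMyc and 3.32 to 5.09 CPM in EμMyc/Casp2-/- tumors, against 55.0 to 111 CPM in all neuroblastomas (interaction 3.54, SE 0.602, LRT FDR 1.06e-06, QLF FDR 0.0927). Fstl5, a follistatin-like gene, had 0 CPM in all 4 EμMyc tumors and 0.586, 1.59 and 0 CPM in the EμMyc/Casp2-/- tumors. Their mean was at least 2.7-fold higher than the floor of 3 reads per library in the EμMyc tumors. In EuMycC2ko215 the 0.586 CPM of Fstl5 was at that library's own floor of 3 reads, so only EuMycC2ko239 lay above its floor. The call (LRT FDR 0.000102, QLF FDR 0.283) was lost without EuMycC2ko239.

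Genes whose changes with Casp2 loss were opposite in the tumor types were led by Megf6, Slc43a3, Cdh22 and Cd93. Megf6, a gene of many EGF-like domains, had 0.262, 0.171, 0.0787 and 0.106 CPM in EμMyc and 8.99, 0.751 and 0.101 CPM in EμMyc/Casp2-/- tumors. The rise was thus mainly that of tumor EuMycC2ko215, and EuMycC2ko245 lay in the EμMyc range. In Th-MYCN tumors Megf6 had 1.10, 8.57, 9.81 and 9.63 CPM, and in Th-MYCN/Casp2-/- tumors 0.288, 0.578, 0.482 and 1.06 CPM. These neuroblastoma groups did not overlap, although MYCN175 lay near the Casp2-/- tumors. The interaction was 7.86 (SE 1.46, LRT FDR 0.00024, QLF FDR 0.103). The LRT call was kept in all 15 fits that left out a tumor, and QLF called Megf6 in 1 of them.

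Slc43a3, a purine nucleobase transporter gene, parted the groups in both tumor types. It had 143, 206, 150 and 185 CPM in EμMyc and 89.9, 88.0 and 96.0 CPM in EμMyc/Casp2-/- tumors. In the neuroblastomas it had 12.6, 6.83, 15.1 and 14 CPM in Th-MYCN and 21.5, 19.1, 23.3 and 21.1 CPM in Th-MYCN/Casp2-/- tumors. The gene was thus lower in every EμMyc/Casp2-/- tumor and higher in every Th-MYCN/Casp2-/- tumor than in the matching tumors with Casp2. The interaction was -1.71 (SE 0.33, LRT FDR 0.000308, QLF FDR 0.0808), called by the LRT in all 15 fits that left out a tumor. Nucb2, a calcium-binding nucleobindin gene, had the same arrangement, with 32.0 to 41.8 CPM in EμMyc and 13.9 to 22.8 CPM in EμMyc/Casp2-/- tumors, and with 26.8 to 38.9 CPM in Th-MYCN and 40.1 to 50.8 CPM in Th-MYCN/Casp2-/- tumors. Its interaction was -1.41 (LRT FDR 0.00802, QLF FDR 0.157).

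Cd93, a receptor of endothelial and early blood cells, had the reverse arrangement. It had 120, 93.2, 158 and 166 CPM in EμMyc and 234, 225 and 279 CPM in EμMyc/Casp2-/- tumors. Th-MYCN tumors had 18.1, 10.1, 9.23 and 10.4 CPM and Th-MYCN/Casp2-/- tumors 4.83, 5.46, 3.76 and 7.80 CPM. Neither pair of groups overlapped. The interaction was 2.0 (SE 0.402, LRT FDR 0.000549, QLF FDR 0.0933), called by the LRT in all 15 fits that left out a tumor. The same arrangement without overlap in either tumor type was seen for the cadherin gene Cdh22 (interaction 6.34, LRT FDR 0.000141, QLF FDR 0.0927), the transporter gene Abcg3 (2.23, 0.00507 and 0.135), the interferon lambda receptor gene Il28ra (4.50, 0.00877 and 0.318) and the dendritic cell transcription factor gene Batf3 (3.21, 0.00418 and 0.219). Of these, Cdh22 was at 1.95 CPM or less in every lymphoma.

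Ptpn13, a tyrosine phosphatase, and Dusp14, a dual-specificity phosphatase, were the last genes of this kind, with interactions of 2.25 (LRT FDR 0.0397, QLF FDR 0.318) and 3.92 (LRT FDR 0.0334, QLF FDR 0.318). In the lymphomas the groups overlapped for both, and the highest tumor was EuMycC2ko215, with 5.08 CPM of Ptpn13 and 2.34 CPM of Dusp14. The LRT call was kept in 5 and 6 of the 15 fits, respectively. H19, an imprinted non-coding RNA gene, had 678, 71.7 and 0.909 CPM in the EμMyc/Casp2-/- tumors and 0.709 to 3.15 CPM in EμMyc tumors. In the neuroblastomas H19 had 1.39 to 40 CPM in Th-MYCN and 0.0643 to 4.54 CPM in Th-MYCN/Casp2-/- tumors, with overlap. Its interaction of 10.52 (SE 1.77, LRT FDR 0.000281, QLF FDR 0.135) thus rested on EuMycC2ko215 and EuMycC2ko239.

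The neuropeptide receptor gene Kiss1r and the calcium channel subunit gene Cacna2d3 were among the negative calls with the smallest FDR. Kiss1r was at 1.06 CPM or less in every lymphoma, with 1.16 to 2.16 CPM in Th-MYCN and 2.22 to 5.78 CPM in Th-MYCN/Casp2-/- tumors (LRT FDR 0.00595, QLF FDR 0.135). Cacna2d3 had 0 CPM in the 3 EμMyc/Casp2-/- tumors, and its EμMyc mean was at least 2.31-fold higher than the floor of 3 reads per library. That mean rested on EuMyc835, with 3.08 CPM, against 0.0787 to 0.262 CPM in the other 3 tumors, and the call (LRT FDR 0.00704, QLF FDR 0.318) was lost without EuMyc835. In the neuroblastomas the Cacna2d3 groups did not overlap, at 1.10 to 3.69 CPM in Th-MYCN and 4.18 to 32.4 CPM in Th-MYCN/Casp2-/- tumors.

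The same direction in both tumor types was led by Casp2 itself (chromosome 6, 42264985 to 42282508). It had 167, 125, 203 and 139 CPM in EμMyc and 58.0, 51.9 and 76.1 CPM in EμMyc/Casp2-/- tumors. Th-MYCN tumors had 126, 93.3, 76.0 and 106 CPM and Th-MYCN/Casp2-/- tumors 80.2, 57.7, 39.6 and 54.5 CPM. Casp2 reads fell without overlap in the lymphomas, and in the neuroblastomas the highest Casp2-/- tumor lay above the lowest Th-MYCN tumor. The genotype log2 fold changes were -1.35 and -0.79, and their difference of -0.57 was not called (SE 0.362, LRT FDR 0.729, QLF FDR 0.758). Whole-gene counts do not show which exons the remaining reads came from, so they do not check the deletion by themselves.

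After Casp2, the genes with the largest smaller effect relative to its SE were Shb, Foxo6, Aldh3b1, Apba1, Arrb2, Nnat, Dlk1, Pdzrn3 and Syt13. Shb, an adaptor of tyrosine kinase signaling, had log2 fold changes of -1.47 in the lymphomas and -1.62 in the neuroblastomas (lymphoma LRT FDR 0.102, neuroblastoma LRT FDR 0.0315). Apart from Casp2 in the lymphomas and Shb in the neuroblastomas, none of these genes was called by the LRT in either tumor type. The aldehyde dehydrogenase gene Aldh3b1 had -1.28 and -1.29, the forkhead factor Foxo6 -2.01 and -1.79, and the Notch ligand-like gene Dlk1 -3.31 and -1.98. Changes in the other direction were those of Arrb2, the beta-arrestin 2 gene, at 0.59 and 0.49, and of Nnat, the imprinted neuronatin gene, at 1.08 and 0.95. Casp2 had the smallest interaction LRT FDR of these 10 genes. The drivers were not called either, with interactions of -0.40 for Myc (LRT FDR 0.951) and 1.18 for Mycn (LRT FDR 0.616). Tumor EuMycC2ko215 had 498 CPM of Myc against 1240 to 1910 CPM in the other 6 lymphomas.

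Interferon-stimulated genes, which cells switch on in antiviral defence, had a positive interaction in 21 of 21 tested members, against 49.4% of all tested genes. Their median interaction was 1.77, beside -0.00607 for all genes, made up of a median log2 fold change of 1.33 in the lymphomas and -0.36 in the neuroblastomas. Of the members 1, Rsad2, was called by the LRT, beside 0.914% of all tested genes, and 0 by QLF. An unadjusted LRT p under 0.05 was found in 8 of 21 members, beside 8.96% of all genes. The summed level of the list was 182, 224, 260 and 277 CPM in EμMyc and 582, 495 and 290 CPM in EμMyc/Casp2-/- tumors. In the Th-MYCN tumors it was 89.9, 70.1, 79.6 and 139 CPM, and in the Th-MYCN/Casp2-/- tumors 57.3, 74.2, 73.2 and 119 CPM. The sums did not overlap in the lymphomas and overlapped in the neuroblastomas. With each tumor left out, the median interaction ranged from 1.18 (without MYCN391) to 2.32 (without MYCNC2ko180), with 21 of 21 members positive each time. The neuroblastoma median was 0.00407 without MYCN391.

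Rsad2, which encodes the antiviral enzyme viperin, had 1.40, 4.28, 6.14 and 2.55 CPM in EμMyc and 6.45, 11.4 and 6.87 CPM in EμMyc/Casp2-/- tumors. It had 1.16, 1.31, 4.33 and 3.33 CPM in Th-MYCN and 0.288, 0.835, 0.868 and 0.650 CPM in Th-MYCN/Casp2-/- tumors. The groups did not overlap in either tumor type, and the changes were in opposite directions. The interaction was 3.13 (SE 0.851, LRT FDR 0.0346, QLF FDR 0.318), and the LRT call was kept in 6 of the 15 fits that left out a tumor. The members of the list answer to a shared signal and are not independent. MHC class II genes, the antigen presentation machinery of B cells and myeloid cells, had 0 of 10 called and a median interaction of 0.711, which was 0.102 without EuMycC2ko239 and 1.07 without EuMyc835.

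T cell markers were highest by far in 1 tumor, EuMycC2ko215. Of 21 tested members, 19 had a positive interaction, with a median of 2.60. Tcf7 and Lat were called by the LRT, beside 0.914% of all tested genes, and 0 by QLF. The summed T cell level was 2910 CPM in EuMycC2ko215, 448 and 322 CPM in the other EμMyc/Casp2-/- tumors, 218 to 307 CPM in EμMyc tumors and 91.3 to 144 CPM in the neuroblastomas. In this sum the lymphoma groups did not overlap. EuMycC2ko215 stood apart by a wide margin. Tcf7, a T cell transcription factor of the Wnt pathway, had 210 CPM there and at most 24.0 CPM in any other tumor, and Lat, an adaptor of the T cell receptor, 482 CPM and at most 11.5 CPM. Without this tumor the list's median interaction was 0.687, with 14 of 20 tested members positive and 0 called, while the interferon list had a median of 1.38. The same tumor held 154 CPM of Ccl25, a chemokine of the thymus, 48.1 CPM of Krt8 and 98.1 CPM of Krt18, which are epithelial keratins, against at most 8.68, 1.40 and 7.22 CPM in the other lymphomas. These 3 genes were chosen after their values were seen. The part of this tumor's cell mixture in the positive interactions was not tested, but without it 47 positive and 17 negative genes were called, of which 54 were among the 136.

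Dendritic cell markers had a median interaction of 1.95 over 6 members, of which Batf3 and the integrin gene Itgax were called, beside 0.914% of all tested genes. Itgax had 1.05 to 6.05 CPM in EμMyc and 7.17 to 24.4 CPM in EμMyc/Casp2-/- tumors, without overlap, and its Th-MYCN mean was set by MYCN391 with 40.2 CPM, against 6.12 to 8.06 CPM in the other 3 (interaction 3.79, LRT FDR 0.0162, QLF FDR 0.318). The LRT FDR of Xcr1, Clec9a, Zbtb46 and Siglech was 0.899 or higher. In NK and cytotoxic cells (5 members), macrophages (16) and B cells (12), 0 members were called, with median interactions of 1.16, 0.526 and 0.319. With a tumor left out these ranged from 0.157 (without MYCN391) to 2.21, from 0.14 (without EuMycC2ko215) to 1.01 and from -0.293 (without MYCN391) to 0.884.

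Endothelial and pericyte markers differed through the neuroblastomas. Of 17 tested members 14 had a positive interaction, with a median of 0.779, from -0.75 in the neuroblastomas and -0.13 in the lymphomas. The summed level was 238 to 323 CPM in Th-MYCN and 126 to 225 CPM in Th-MYCN/Casp2-/- tumors, without overlap. In the lymphomas it was 282 to 584 CPM and 304 to 504 CPM, with overlap. Pecam1, the adhesion molecule of the vessel lining, was called, beside 0.914% of all tested genes (interaction 1.42, SE 0.341, LRT FDR 0.0106, QLF FDR 0.218). It had 26.6, 20.4, 17.9 and 27.0 CPM in Th-MYCN and 9.72, 9.32, 8.29 and 12.7 CPM in Th-MYCN/Casp2-/- tumors, against 74.6 to 146 CPM in the lymphomas. Since the neuroblastomas were picked by how few vessels they had, the part of that choice in this difference was not tested.

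Genes of the sympathoadrenal lineage, from which neuroblastoma arises, had 2 of 19 tested members called by the LRT, among them Gch1, and a median interaction of 0.335. The LRT called 0.914% of all tested genes. Gch1, the first enzyme of the cofactor that tyrosine hydroxylase needs, had 120, 146, 93.6 and 173 CPM in Th-MYCN and 27.2, 47.0, 32.1 and 27.5 CPM in Th-MYCN/Casp2-/- tumors. In the lymphomas Gch1 had 6.42 to 14.4 and 6.36 to 16.4 CPM, with overlap, and the interaction was 2.11 (SE 0.507, LRT FDR 0.0118, QLF FDR 0.283). Of the Schwann cell and neural crest list, Mitf, the melanocyte transcription factor, was called (interaction 3.21, LRT FDR 0.0284, QLF FDR 0.318), with 3.67 to 19.3 CPM in Th-MYCN and 1.64 to 2.76 CPM in Th-MYCN/Casp2-/- tumors. Its lymphoma groups overlapped, and its LRT call was kept in 5 of the 15 fits that left out a tumor. The list's median interaction was the other way, at -0.614.

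Of the remaining pathways, Lef1 and Tcf7 were called in the Wnt list (14 tested), Hk2 in hypoxia and glycolysis (15) and Six6 in its own homeobox family list (9), with median interactions of 0.347, 0.237 and -0.412. Among all tested genes the LRT called 0.914%. Lef1, a partner of beta-catenin, had 4.02, 83.1, 15.3 and 2.55 CPM in EμMyc and 76.6, 119 and 81.8 CPM in EμMyc/Casp2-/- tumors, and 0.577 to 14.5 CPM and 0 to 0.675 CPM in the neuroblastomas without and with Casp2 loss (LRT FDR 0.022, QLF FDR 0.318). Groups overlapped in both tumor types. Hexokinase 2 (Hk2) had 72.2 to 95.2 CPM in EμMyc and 105 to 111 CPM in EμMyc/Casp2-/- tumors, and 17.4 to 39.6 CPM in Th-MYCN and 9.06 to 16.5 CPM in Th-MYCN/Casp2-/- tumors, without overlap in either (interaction 1.43, LRT FDR 0.0284, QLF FDR 0.318). Six6, a homeobox gene, was at 0.195 CPM or less in every lymphoma, so its call rested on 0, 79.9, 6.81 and 167 CPM in the Th-MYCN tumors against at most 0.144 CPM in the Th-MYCN/Casp2-/- tumors (LRT FDR 0.0411, QLF FDR 0.821). Of the 12 members called in these 27 lists, which leave out the salivary genes, 0 were called by QLF.

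The lists nearest to the known roles of caspase-2 and Myc held no call by either test. These were the PIDDosome (3 tested, median interaction -0.505), the other caspases with Apaf1 (9, -0.11), the Bcl2 family (15, 0.209), the p53 pathway (16, -0.00719), the Myc and Max network (13, -0.201), ribosome biogenesis (17, 0.0334), mitosis (18, -0.113) and antioxidant defence (17, -0.144). In mitosis, 0 of 18 members had an unadjusted LRT p under 0.05. The 7 tested genes next to Casp2 on chromosome 6 also held 0 calls, with a median of 0.318. Within 20 Mb on each side of Casp2, 3 of 177 tested genes (1.69%) were called, namely Krba1, Sspo and Gimap4, all positive. Of the 665 tested genes placed on chromosome 6 by their deposited symbol 13 (1.95%) were called. The share over all tested genes was 0.914%. No call was found either for early B cell (8 tested), germinal centre and plasma cell (8), erythroid (2), fibroblast (10) and neuronal differentiation genes (17), with medians of 0.144, 0.289, 3.75, -0.621 and -0.35. The erythroid sum was 673 CPM in EuMycC2ko245 against 11.7 to 58.0 CPM in the other lymphomas. Over the 15 fits that left out a tumor, the median interaction kept its sign in 14 of the 27 lists and changed it in 13, among them the p53, mitosis, ribosome biogenesis, Wnt, hypoxia, sympathoadrenal and neuronal lists.

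**Figure D3:**
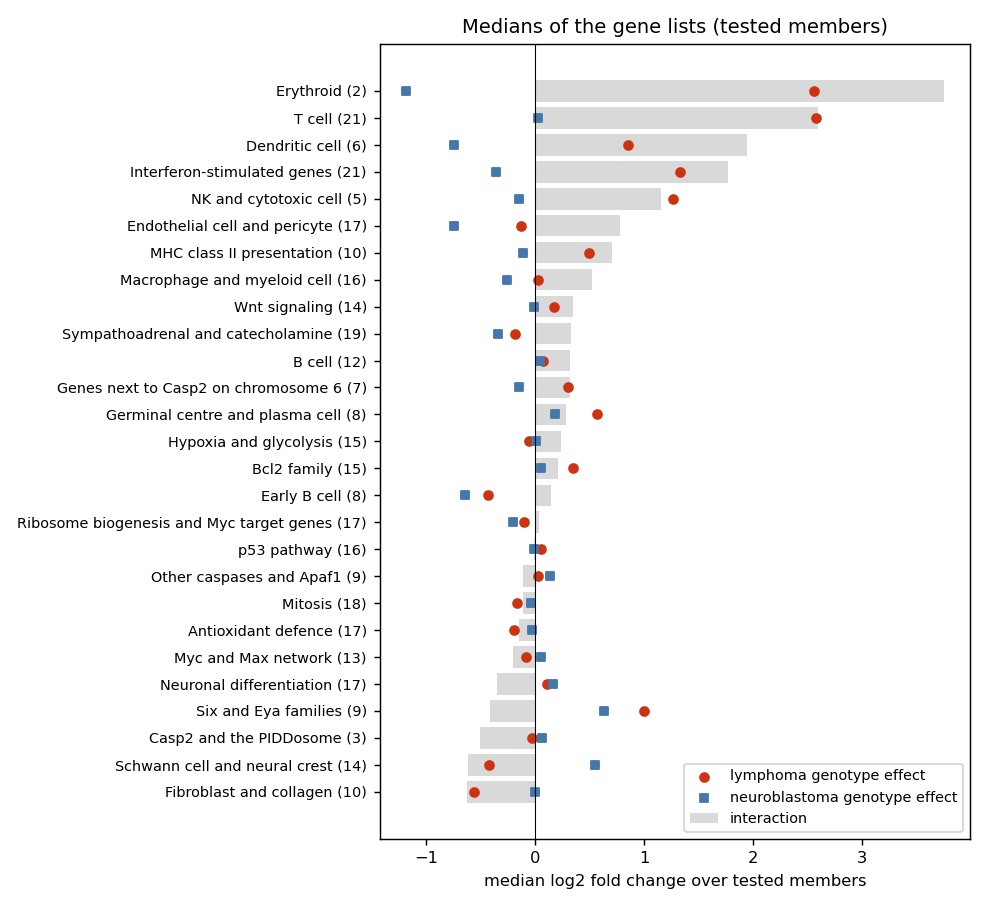
Median log2 fold change over the tested members of each gene list (x axis), with the number of tested members in parentheses (y axis). Grey bars show the interaction, red points the lymphoma effect and blue squares the neuroblastoma effect. The bar of 3.75 for erythroid genes rests on 2 members and is 0.505 without EuMycC2ko245. The lymphoma median is the larger in size for T cell (2.58 against 0.03) and interferon-stimulated genes (1.33 against -0.36), and the neuroblastoma median for endothelial genes (-0.75 against -0.13).

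Of the 28 negative interaction DEGs, 6 were genes of salivary gland secretions (Bpifa2, Amy1, Dcpp1, Dcpp2, Dcpp3 and Smr3a), from a list of 13 that was chosen after their values were seen. Amy1, salivary amylase (chromosome 3, 113555710 to 113606699), had 3.24, 598, 531 and 1530 CPM in EμMyc and 1.37, 1.75 and 1.31 CPM in EμMyc/Casp2-/- tumors, with 21.2 to 46.8 CPM in the neuroblastomas (interaction -9.27, SE 1.19, LRT FDR 2.57e-07, QLF FDR 0.046). Reads of Amy1 could be shared with related amylase genes, and those of Dcpp1, Dcpp2 and Dcpp3 with each other. Bpifa2, parotid secretory protein, had 0.962 CPM in EuMyc614 and 1070 to 4390 CPM in the other EμMyc tumors, and at most 0.417 CPM in EμMyc/Casp2-/- tumors (interaction -10.77, LRT FDR 2.19e-05, QLF FDR 0.318). Dcpp1 followed with 0.700 and 65.7 to 426 CPM against at most 0.781 CPM (LRT FDR 0.000836, QLF FDR 0.318). Crisp1, a cysteine-rich secretory protein, had 0.175 and 14.5 to 47.8 CPM against 0 CPM, an EμMyc mean at least 51.6-fold higher than the floor of 3 reads (LRT FDR 0.00532, QLF FDR 0.393).

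The sum of the salivary list was 10.5 CPM in EuMyc614, 2210 to 8340 CPM in the other 3 EμMyc tumors, 11.5, 6.51 and 292 CPM in the EμMyc/Casp2-/- tumors and 33.0 to 51.8 CPM in the neuroblastomas. The EμMyc/Casp2-/- tumor with 292 CPM was EuMycC2ko245, where Prol1, a further gene of these secretions and a positive DEG, had 184 CPM, Car6, salivary carbonic anhydrase, 56.5 CPM and Pip, prolactin-induced protein, 44.4 CPM. Salivary transcripts were therefore present in tumors of both genotypes. The part of gland tissue in these calls was not tested. Without EuMyc743b, EuMyc829 and EuMyc835, a set chosen after seeing these values, 108 positive and 89 negative genes were called and 37 of them were among the 136. The choice of these tumors fixes the loss of the salivary calls, which is therefore no result. In that fit EuMyc614 is the only EμMyc tumor and is assumed to vary like the other groups. There Rcn1, Prdm16, Pitpnm2, Ccdc30, St7, Vill and Tmem181b-ps were called again by the LRT.

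**Figure D4:**
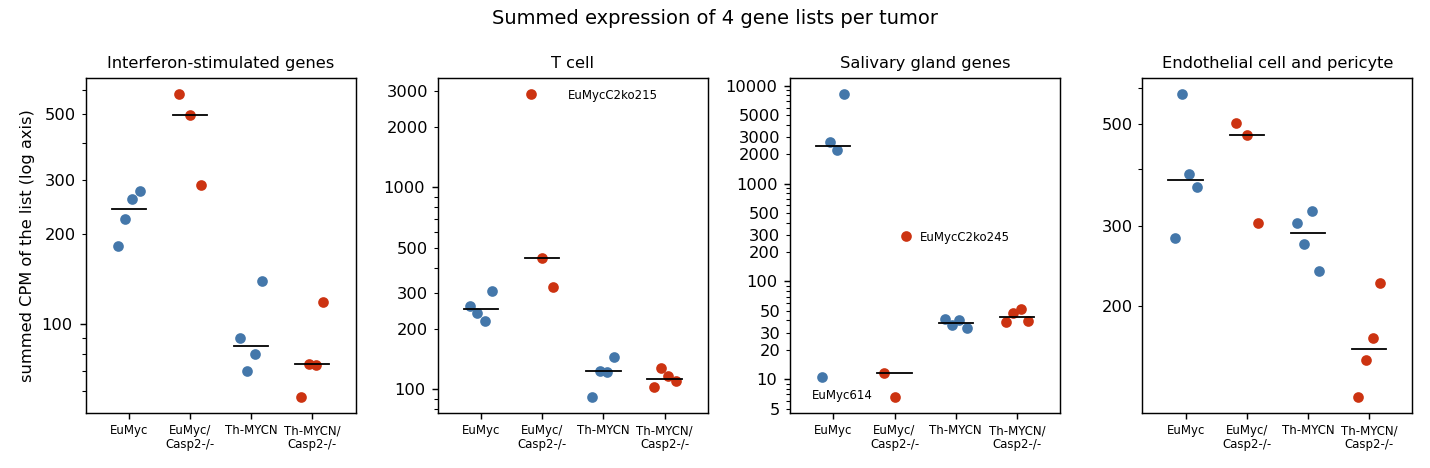
Summed CPM of 4 gene lists (y axis, log scale) per tumor in the 4 groups (x axis), with points for tumors and bars for medians. Interferon-stimulated and T cell genes do not overlap between the lymphoma groups, and T cell genes stand at 2910 CPM in EuMycC2ko215. Salivary genes are low in EuMyc614 and 292 CPM in EuMycC2ko245, and endothelial genes do not overlap between the neuroblastoma groups.

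The count of interaction DEGs depended on single tumors. With a tumor left out it ranged from 55 (without MYCN391) to 319 (without EuMycC2ko245), and between 54 and 118 of the 136 were called again. In all 15 of these fits 27 of the 136 genes were called, 18 positive and 9 negative. Of the 8 genes called by QLF, Rcn1, Prdm16, Pitpnm2 and Ccdc30 were called by QLF in all 15 fits. The share of genes with the same direction ranged from 46% (without EuMycC2ko215) to 54.4% (without MYCNC2ko118). Genes with no fitted change in a tumor type counted there as not sharing a direction.

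**Figure D5:**
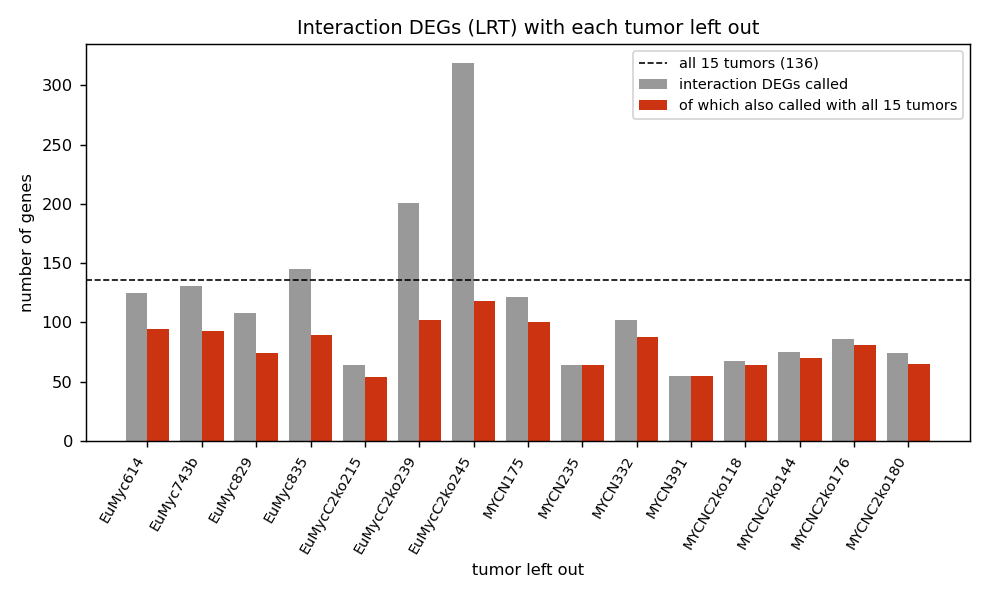
Number of interaction DEGs by the LRT (y axis, genes) with each tumor left out (x axis). Grey bars give all calls, red bars those also called with all 15 tumors, and the dashed line the 136 calls of the full fit. Fits without EuMycC2ko245, EuMycC2ko239 and EuMyc835 gave more calls (319, 201 and 145) and all fits without a Th-MYCN or Th-MYCN/Casp2-/- tumor fewer than 136.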

How the data were processed

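Poly(A) RNA of frozen tumors was sequenced with single-end reads of 50 bases. Per the labels and the study's methods, the authors checked reads with FastQC, aligned them with STAR to mm10 (GRCm38) and used the second-strand column in edgeR. The annotation release and versions are not given in the sources used here. The deposited counts were un-normalised whole reads for 23329 genes in 15 tumors, plus 4 rows that name no gene (66.4% to 71.8% of second-strand reads), which were left out.

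Genes above 1 CPM in at least 3 tumors were kept (14880), scaled by TMM and fitted as 4 group means in edgeR 4.0.16 (R 4.3.3). The interaction was tested by the LRT, with QLF beside it, and a differentially expressed gene (DEG) had an FDR under 0.05 and a fold change over 2. Fitted folds used a prior count of 2. The alternatives included DESeq2 1.42.0 and limma 3.58.1 (voom). Named genes were those called by QLF, the 10 positive and 10 negative calls with the smallest FDR, called list members, the 10 genes of each kind with the largest smaller effect over its SE among those of the same and of opposite sign, and Casp2, Megf6, Xist, Myc and Mycn. Krba1, Sspo, Gimap4, Abcb9 and Ccdc27 were added after their values were seen. A called list member that the rule names is not reported here. Members and lists were chosen with earlier results of these data known. Scripts were tested on simulated data. No 2 libraries of a group agreed within sampling noise.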

Additional observations from a re-analysis of the deposited data

Results flagged for a closer look

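The interaction itself was past the threshold for 136 genes by the LRT and 8 by QLF, a tested difference between the lymphoma and neuroblastoma effects. The log2 interactions of the latter were 4.74 (Rcn1), 5.26 (Prdm16), -4.58 (Pitpnm2), 5.08 (Ccdc30), -9.27 (Amy1), -2.52 (St7), 4.01 (Vill) and 2.18 (Tmem181b-ps).

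Single tumors stood far from the other 3 of their group in 19 of 234 groups of 4 values tested by Dixon's criterion. The EμMyc/Casp2-/- group holds 3 tumors and was not tested, so none of its tumors could be flagged. Chance gives about 1 in 20 for independent values with a normal distribution. The CPM were not transformed and the groups share tumors, so that rate is only a rough guide. In EuMyc743b the values that stood apart were Prdm16 (1.11 CPM), Lef1 (83.1 CPM), Shb (24.8 CPM) and Foxo6 (11.6 CPM). In EuMyc835 it was Cacna2d3 (3.08 CPM), in EuMyc829 Apba1 (0.472 CPM) and in EuMyc614 the Wnt list sum (1080 CPM). In MYCN175 they were Megf6 (1.10 CPM), Cd93 (18.1 CPM), Aldh3b1 (9.65 CPM), Dlk1 (792 CPM) and the sum of genes next to Casp2 (411 CPM). MYCN391 stood apart in Itgax (40.2 CPM) and the dendritic cell sum (54.5 CPM), and MYCN332 in Dcpp1 (1.15 CPM). Among Th-MYCN/Casp2-/- tumors, MYCNC2ko118 stood apart in Prdm16 (10.0 CPM) and Aldh3b1 (3.67 CPM), MYCNC2ko176 in Cacna2d3 (32.4 CPM) and MYCNC2ko144 in the sympathoadrenal sum (4350 CPM).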

How the results depend on the processing

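The 108 positive and 28 negative calls became 5 and 3 by QLF, 4 and 1 by limma-voom, 2 and 2 by QLF on reads of either strand, 58 and 18 with sex as a covariate, and 57 and 18 with the tumor types fitted separately. With onset as a covariate 37 positive and 28 negative genes were called, of which 28 and 11 were among the main calls. Onset did not overlap between the lymphoma genotypes, so its part cannot be told apart from that of genotype. Negative calls were 18 with a filter of 1 CPM in 7 tumors, 54 at an FDR under 0.1 and 89 without the 3 EμMyc tumors rich in salivary genes. DESeq2 gave 98 and 25, and RLE scaling 110 and 28. QLF called 21 genes in the lymphomas (LRT 215), 5 in the neuroblastomas (LRT 121) and 0 members of the 27 lists without the salivary genes (LRT 12). The share of genes with the same direction was 46.5% without a filter, 49.2% with sex, 47.0% with onset and 55.3% above 10 CPM, so it lay on both sides of an even split. Genes with no fitted change in a tumor type count in this share as not sharing a direction. A share below an even split is therefore not by itself an excess of opposite directions, least of all without a filter. With a tumor left out, positive calls ranged from 42 to 268, negative calls from 13 to 51, the shared direction from 46% to 54.4% and called list members from 4 to 21. Xist reversed to -0.23 with sex as a covariate and to -0.75 without EuMycC2ko215, in a range up to 9.55 with a tumor left out. The cause of these changes was not tested. The removal of salivary-rich tumors and QLF on either strand were chosen after seeing the data. Depth limits genes near 3 reads per library. No paired analysis was possible because replicate numbers follow accession order and each tumor came from a different mouse.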
